A study of Mus musculus with 8 samples.

Results

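Notch receptors, ligands, and target genes were measured in mouse aortic smooth muscle cells (MASMCs) of WT and *Hint1*-/- genotype. The 10 genes described were the rows of the deposited count files with the symbols *Notch1*, *Notch2*, *Notch3*, *Jag1*, *Jag2*, *Dll4*, *Hes1*, *Hey1*, *Hey2*, and *Heyl*, chosen by name as Notch pathway genes of vascular smooth muscle, out of 18533 symbols. RNA-Seq was performed on MASMCs from WT mice (n = 4) and from *Hint1*-/- mice (n = 4), and every sample of both genotypes had received PDGF-BB at 20 ng/mL for 24 hours, so no sample without PDGF-BB was compared. PDGF-BB is a growth factor that drives cultured smooth muscle cells from a contractile to a synthetic state, and HINT1 is a small nucleotide-binding protein. The study's methods describe primary cells released by collagenase from aortas of male mice aged 4 to 6 weeks, with the adventitia and endothelium removed first. *Hint1* was deleted in the whole animal, not in smooth muscle alone. The sources do not say whether the 4 samples of a genotype came from separate mice or cultures. Each p-value thus sets the genotype difference against the spread between these samples. That spread may be technical, and the p-values may not extend to other mice.

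Notch receptors sit in the cell membrane and are switched on by Jagged or Delta-like ligands on a neighboring cell. Ligand binding exposes the receptor to cleavage by ADAM proteases and then by γ-secretase, and the freed intracellular part enters the nucleus, joins the DNA-binding factor RBPJ and a Mastermind coactivator, and turns on genes such as those of the HES and HEY families of transcriptional repressors. In arteries, NOTCH3 is the receptor best known in smooth muscle, JAG1 is presented by endothelium and by smooth muscle itself, and Notch signaling is known for its part in smooth muscle differentiation.

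Each sample held 20778077 to 20888041 estimated counts. *Hint1* itself had a level of 111 ± 1.72 CPM in WT and 35.6 ± 1.46 CPM in *Hint1*-/- MASMCs (SD, n = 4 per genotype), where CPM is the count scaled to the library size after edgeR's TMM correction. *Hint1* reads thus remained in every library labelled *Hint1*-/-, at 713 to 778 counts or 32.1% of the WT level, and gene-level counts do not show where in the gene they fall. Each of the 8 smooth muscle markers examined was expressed in every sample, with a summed level of 1375 to 1491 CPM in WT and 1137 to 1228 CPM in *Hint1*-/- samples. So was each of 6 macrophage markers, with a higher summed level of 2262 to 2619 CPM in WT and 1847 to 1967 CPM in *Hint1*-/- samples. The Notch levels are those of the whole culture and were not assigned to a cell type. Samples of a genotype differed from one another by more than the sampling noise of counting, so none was treated as a copy of another. That check cannot tell separate mice from repeat cultures or libraries. The variation between samples of a genotype beyond counting noise, as edgeR's common estimate over genes, was 3.79%.

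After edgeR's filter on low counts, 7 of the 10 Notch genes and 13535 genes in all were compared between *Hint1*-/- and WT by the quasi-likelihood test of edgeR, two-sided, with Benjamini-Hochberg adjustment across all of them. *Notch3* and *Hes1* fell in *Hint1*-/- MASMCs, to 79.0% and 71.0% of the WT level, while *Notch1*, *Notch2*, *Jag1*, *Jag2*, and *Hey2* did not pass the test. Both changes were smaller than 1.5-fold. At the study's thresholds, an adjusted p under 0.05 and a fold change over 1.5, edgeR called 0 of the 7 tested genes, where 2.83% of all tested genes were called (1.34% higher and 1.49% lower), and DESeq2 and limma-voom also called 0. At the adjusted p alone, 2 of the 7 passed, both of them lower, where 21.5% of all tested genes passed and 10.2% were lower. An unadjusted p under 0.05 was seen for 3 of the 7, *Notch2* being the other one, and for 32.8% of all. The share of the 7 genes that passed was thus near that of all genes. WT and *Hint1*-/- values were fully apart for *Notch3* and *Hes1*, 2 of the 7, and for 23.0% of all tested genes. The median log2 fold change was −0.02 over the 7 tested genes and 0.00 over all 13535 when rounded.

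**Figure D1:**
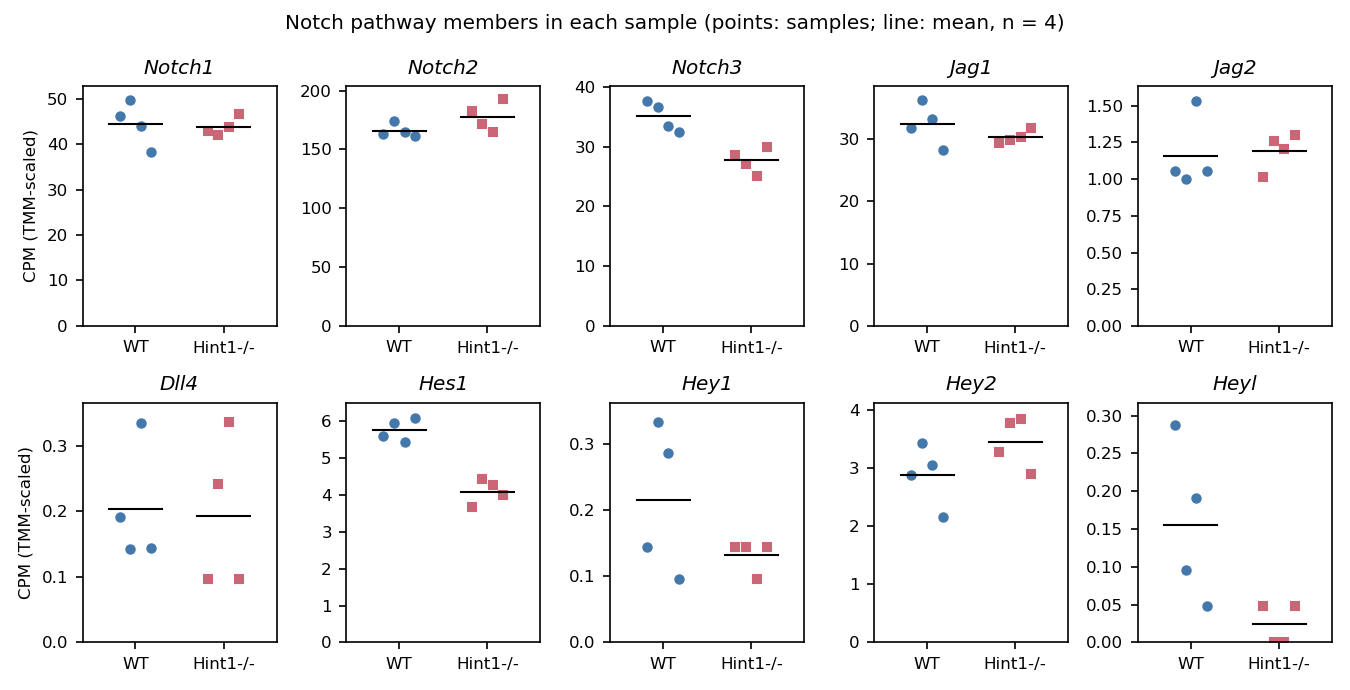
Level of each of the 10 Notch genes in CPM (vertical axis from 0) in the 4 WT samples (circles) and the 4 *Hint1*-/- samples (squares), with the mean of each genotype as a line. All *Hint1*-/- samples lie below all WT samples for *Notch3* and *Hes1*, and the genotypes overlap in the other 8 panels.

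*Notch3*, the receptor most closely tied to arterial smooth muscle, was the receptor that fell. It had 784, 769, 699, and 678 counts in WT replicates 1, 2, 3, and 4 and 592, 561, 523, and 622 counts in *Hint1*-/- replicates 1, 2, 3, and 4. Every *Hint1*-/- sample was below every WT sample, with the highest *Hint1*-/- sample at 622 counts and the lowest WT sample at 678. The mean *Notch3* level was 35.0 CPM ± 2.47 in WT MASMCs and 27.7 CPM ± 2.06 in the *Hint1*-/- group (SD, n = 4 per genotype). The log2 fold change was −0.34 (SE 0.059, 95% interval −0.46 to −0.22, adjusted p = 0.000343 in edgeR's test). *Notch3* lies on chromosome 17 of mm10 from 32120820 to 32166852, and its longest annotated transcript has 33 exons. Of the 8086 stretches of 50 bases in its annotated transcripts, the read length in the study's methods, 399 also occur in another gene, among them the antisense gene *Gm17276*. Whether reads were counted by strand is not given in the sources used here, so reads of those stretches cannot be assigned with certainty.

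*Notch2* had 3395, 3663, 3441, and 3369 counts in WT replicates 1 to 4 and 3788, 3548, 3425, and 4001 counts in *Hint1*-/- replicates 1 to 4. The genotypes overlapped, and *Hint1*-/- replicate 4 was the highest of the 8 samples. The log2 fold change was 0.10 (SE 0.044, 95% interval 0.01 to 0.19), with an adjusted p of 0.111 in edgeR's test. With *Hint1*-/- replicate 3 left out, *Notch2* passed the test at a log2 fold change of 0.14 (adjusted p = 0.0312), and over the 18 alternative fits its adjusted p ranged from 0.0312 to 0.363. *Notch2* lies on chromosome 3 from 98013527 to 98150361. Of the 50-base stretches of its transcripts, 3.76% also occur in *Gm42820*, annotated on the same strand, and reads of those stretches cannot be assigned with certainty.

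*Notch1*, a receptor of endothelium as well as of smooth muscle, had 963, 1043, 918, and 799 counts in WT replicates 1 to 4 and 887, 869, 910, and 970 in *Hint1*-/- replicates 1 to 4. The WT samples spanned a wider range than the *Hint1*-/- samples and included both the highest and the lowest value. Its log2 fold change was −0.02 (SE 0.060, 95% interval −0.15 to 0.10, adjusted p = 0.840 from edgeR's test), and a difference within that interval would not have been resolved. *Notch1* lies on chromosome 2 from 26457903 to 26516663, where 9.11% of the 50-base stretches of its transcripts match noncoding genes on the opposite strand.

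*Jag1*, which encodes the Jagged ligand of the artery wall, had 661, 760, 692, and 590 counts in WT samples and 606, 616, 631, and 660 in *Hint1*-/- samples. The *Hint1*-/- values lay inside the WT range, and the log2 fold change was −0.09 (SE 0.061, 95% interval −0.22 to 0.03, adjusted p = 0.307 from edgeR's test). *Jag2*, the other Jagged ligand, had 22, 21, 32, and 22 counts in WT samples and 21, 26, 25, and 27 in *Hint1*-/- samples. WT replicate 3 stood above the other WT samples, and the log2 fold change was 0.04 with a wide 95% interval of −0.40 to 0.48 (adjusted p = 0.918 from edgeR's test). *Dll4*, a Delta-like ligand best known from arterial endothelium, had 2 to 7 counts in every sample and was not tested. Pooled over the 4 libraries of each genotype it had 17 counts in WT and 16 in *Hint1*-/- MASMCs, a ratio of 0.948 (95% exact interval 0.448 to 2.00, covering counting error only). *Jag1* lies on chromosome 2 from 137081456 to 137116644, *Jag2* on chromosome 12 from 112907819 to 112929776, and *Dll4* on chromosome 2 from 119325784 to 119335962.

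Among the target genes, *Hes1* fell and *Hey2*, at the next highest level, did not pass the test. *Hes1* encodes a basic helix-loop-helix repressor that responds to Notch in many cell types. It had 117, 125, 114, and 127 counts in WT replicates 1 to 4 and 76, 92, 89, and 83 counts in *Hint1*-/- replicates 1 to 4. The genotypes were separated by a gap between 92 and 114 counts. The mean *Hes1* level was 5.78 CPM ± 0.295 in WT MASMCs and 4.10 CPM ± 0.342 in the *Hint1*-/- group (SD, n = 4 per genotype). This is a log2 fold change of −0.49 (SE 0.10, 95% interval −0.71 to −0.28, adjusted p = 0.00174 from edgeR's test). The interval reaches past 1.5-fold, although the estimate does not. *Hes1* lies on chromosome 16 from 30064384 to 30067796, and 0 of the 1984 stretches of 50 bases in its transcripts occur in another annotated gene.

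*Hey2* encodes a related repressor that is known from arterial and cardiac development. WT replicates 1 to 4 had 60, 72, 64, and 45 counts of *Hey2* and *Hint1*-/- replicates 1 to 4 had 68, 78, 80, and 60, and the genotypes overlapped from 60 to 72 counts. The log2 fold change was 0.26 (SE 0.15, 95% interval −0.06 to 0.57, adjusted p = 0.251 from edgeR's test), the opposite sign to that of *Hes1*. *Hey2* lies on chromosome 10 from 30832359 to 30842801.

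*Hey1* and *Heyl*, the remaining HEY repressors, were too low to be tested. *Hey1* had 3, 7, 6, and 2 counts in WT samples and 3, 3, 2, and 3 counts in *Hint1*-/- samples, or 18 against 11 when pooled, a ratio of 0.616 (95% exact interval 0.263 to 1.38, counting error only). *Heyl*, which has been described as a NOTCH3 target in mural cells, had 6, 2, 4, and 1 counts in WT samples and 1, 0, 0, and 1 counts in *Hint1*-/- samples. The pooled counts of *Heyl* were 13 in WT and 2 in *Hint1*-/- MASMCs, a ratio of 0.155 (95% exact interval 0.0170 to 0.685, counting error only), and the genotypes met at 1 count. A library at 0 counts still allows up to 3 counts, or about 0.145 CPM, which is close to the mean WT level of 0.156 CPM. When edgeR's test was run with no filter on low counts, *Heyl* had a log2 fold change of −2.42 with an adjusted p of 0.0763, and *Hey1* and *Dll4* had adjusted p-values of 0.518 and 0.962. *Hey1* lies on chromosome 3 from 8663359 to 8667256 and *Heyl* on chromosome 4 from 123233556 to 123249875.

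The core motif of RBPJ, TGGGAA, was searched on both strands in RefSeq's windows of 250 bases before and 50 bases after the start (GRCm38.p6). Sequence is printed for *Hey2*, the only gene with a match, and for *Notch3*, as an example of those without. Whether the motif goes with the changes in level was not tested. Windows were found for 7 of the 10 genes, and not for *Hes1*, *Hey1*, or *Heyl*. Capitals mark the matches, TTCCCA being the motif on the opposite strand. The *Hey2* sequence covers chr10:30842781-30843033 and the *Notch3* sequence chr17:32166891-32167140, each on the minus strand and written 5′ to 3′ toward the start, through its last base before the start for *Notch3* and through the motif that spans the start for *Hey2*.
Hey2: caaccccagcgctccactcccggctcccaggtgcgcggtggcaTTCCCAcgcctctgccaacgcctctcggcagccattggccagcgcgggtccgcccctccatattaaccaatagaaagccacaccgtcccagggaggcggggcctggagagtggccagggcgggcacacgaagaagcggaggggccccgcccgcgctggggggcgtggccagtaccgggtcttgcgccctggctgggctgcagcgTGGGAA
Notch3: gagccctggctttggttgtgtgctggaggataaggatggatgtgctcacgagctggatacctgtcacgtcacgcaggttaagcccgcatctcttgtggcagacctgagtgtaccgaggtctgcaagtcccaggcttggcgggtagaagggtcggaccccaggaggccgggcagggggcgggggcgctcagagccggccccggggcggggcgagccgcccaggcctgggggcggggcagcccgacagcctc
*Hey2* had 2 matches, of which one begins 207 bases before the start on the opposite strand and the other spans the start, with 3 bases before it. The windows of *Notch1*, *Notch2*, *Notch3*, *Jag1*, *Jag2*, and *Dll4* had 0 matches. Of all 32851 windows in the table, 25.6% had at least 1 match and 3.79% had 2 or more. A match shows that these letters are present, and RBPJ binding was not measured. The 7 windows had a GC content of 55.7% to 86.0%, above the median of 52.7% over all windows.

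To compare levels between genes, counts were divided by library size and by the length of the union of annotated exons, giving RPKM. *Notch2* was the highest of the 10 genes in both genotypes, at 15.4 ± 0.552 RPKM in WT and 16.5 ± 1.15 RPKM in *Hint1*-/- MASMCs (SD, n = 4 per genotype). *Jag1* followed at 5.55 ± 0.565 RPKM in WT and 5.20 ± 0.189 RPKM in *Hint1*-/- MASMCs. The order then ran through *Notch3*, *Notch1*, *Hes1*, *Hey2*, and *Jag2* in both genotypes. In WT, the ranges of *Notch3* (4.02 to 4.65 RPKM) and *Notch1* (2.69 to 3.49 RPKM) were apart, and those of *Notch1* and *Hes1* overlapped. In *Hint1*-/- MASMCs, the range of *Notch3* (3.11 to 3.70 RPKM) overlapped that of *Notch1* (2.95 to 3.28 RPKM), and *Hes1* (1.80 to 2.18 RPKM) lay below both. *Hey1*, *Dll4*, and *Heyl* were each at 0.102 RPKM or below in every sample, and *Hey1* and *Dll4* overlapped and changed places between the genotypes. With the length of the longest annotated transcript, *Notch1* (4.69 RPKM in WT) and *Notch3* changed places over the 8 samples, since many exon bases of *Notch1* belong to its shorter transcripts.

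**Figure D2:**
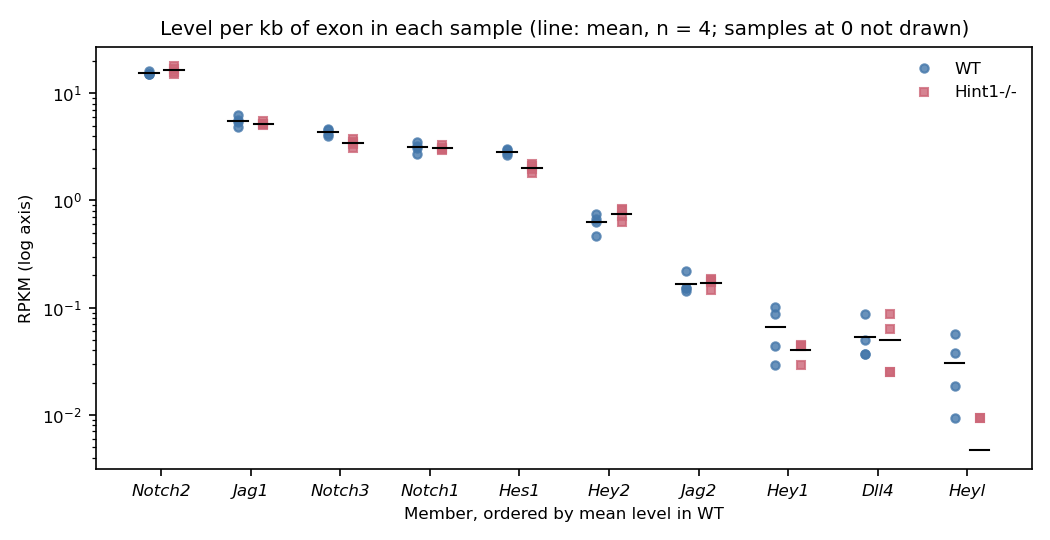
Level per kb of exon (RPKM, log axis) of the 10 Notch genes in each WT sample (circles) and *Hint1*-/- sample (squares), ordered by the mean level in WT, with means as lines. *Notch2* is highest at about 15.4 RPKM in WT, and the 2 *Hint1*-/- samples with 0 counts of *Heyl* are not drawn.

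As a share of the summed RPKM of the 3 receptors, a value that does not depend on library scaling, *Notch3* made up 20.2%, 18.7%, 18.4%, and 18.5% in WT replicates 1 to 4 and 15.0%, 15.1%, 14.5%, and 14.9% in *Hint1*-/- replicates 1 to 4. *Notch2* made up 67.4% ± 1.45 in WT and 71.7% ± 0.419 in *Hint1*-/- samples (SD, n = 4 per genotype), and *Notch1* 13.7% ± 0.886 and 13.4% ± 0.651. The shares of *Notch3* and *Notch2* did not overlap between the genotypes, and those of *Notch1* did. *Jag1* made up 96.2% ± 0.958 of the ligand total in WT and 95.9% ± 0.688 in *Hint1*-/- samples. Within the targets, *Hes1* made up 79.7% ± 3.94 in WT and 71.7% ± 1.79 in *Hint1*-/- samples, and *Hey2* 17.6% ± 2.86 and 26.7% ± 2.01 (SD, n = 4 per genotype), neither with overlap. The shares within a role sum to a fixed total, so a fall of *Notch3* or *Hes1* by itself raises the shares of the others. In level, *Notch2* and *Hey2* overlapped between the genotypes and did not pass the test. Their shares are thus not a separate result. All shares are given as a description, with no test, and they move with the length assigned to each gene. With the longest transcript, a choice made after seeing the data, *Notch3* was 17.6% and 13.8% of the receptors and *Hey2* 21.7% and 32.1% of the targets in WT and *Hint1*-/- samples.

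**Figure D3:**
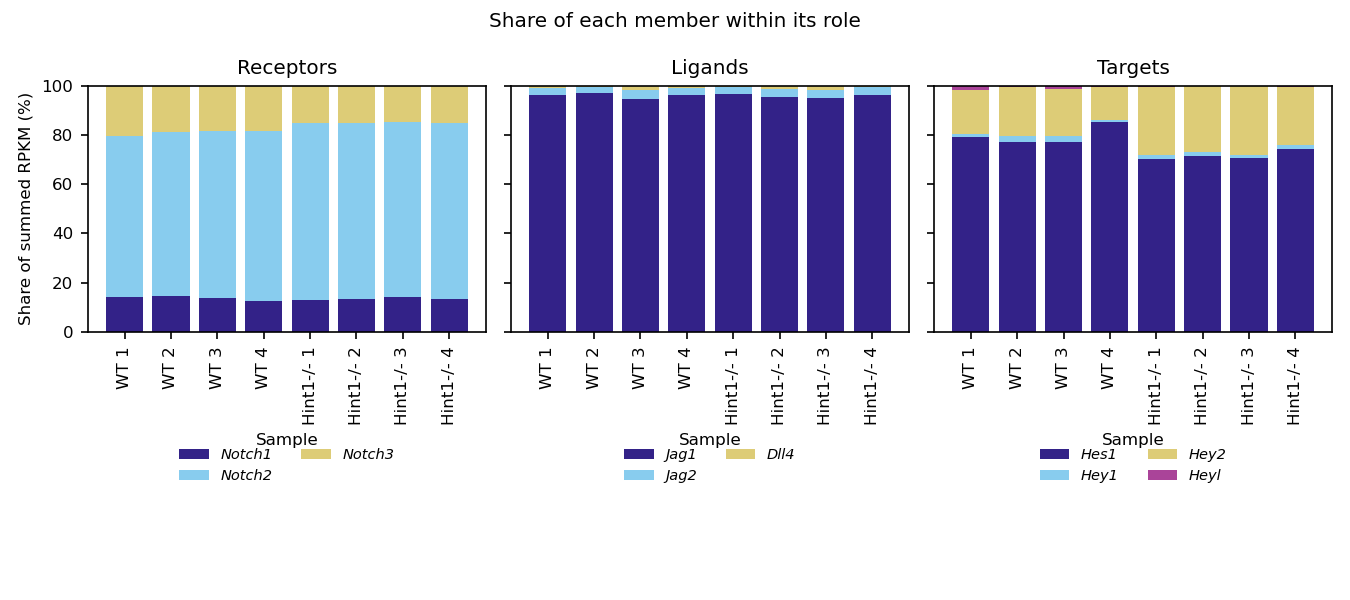
Share of each gene in the summed RPKM of the receptors, ligands, and targets (percent, vertical axis) in each of the 8 samples (horizontal axis), as stacked bars. *Notch3* takes 18.4% to 20.2% of the receptor total in WT bars and 14.5% to 15.1% in *Hint1*-/- bars. *Hey2* takes a larger share of the targets in every *Hint1*-/- sample, and a fall of *Hes1* by itself raises that share.

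Beyond the 10 genes, a list of 59 further genes drawn up for the pathway was examined, of which 53 were tested. At the adjusted p alone, 7 rose and 6 fell, or 13 of 53, where 21.5% of all tested genes passed (11.2% higher and 10.2% lower), and the median log2 fold change was 0.02. At both thresholds 1 gene, *Dlk1*, was called, where 2.83% of all were, and DESeq2 called 0 and limma-voom 1. Without *Hint1*-/- replicate 2 the number at the adjusted p alone was 8, DESeq2 gave 10, and limma-voom gave 13. All of these changes other than that of *Dlk1* were under 1.5-fold.

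*Notch4*, a receptor best known from endothelium, rose while *Notch3* fell. It had 220, 230, 232, and 249 counts in WT samples and 315, 268, 326, and 297 in *Hint1*-/- samples, with no overlap. The log2 fold change of *Notch4* was 0.38 (SE 0.071, 95% interval 0.23 to 0.53, adjusted p = 0.00063 from edgeR's test). Its level of 1.38 ± 0.0718 RPKM in WT and 1.80 ± 0.148 RPKM in *Hint1*-/- MASMCs (SD, n = 4 per genotype) stayed below that of *Notch3*. *Notch4* lies on the same chromosome as *Notch3*, from 34564268 to 34588503. *Dlk1*, which encodes a Delta-like protein without the usual receptor-activating domain, had 11 to 15 counts in WT samples against 6 to 8, a log2 fold change of −0.87 (adjusted p = 0.0416 from edgeR's test). The *Dlk1* call was lost with any of the 8 samples left out (adjusted p = 0.0535 to 0.104), with no filter (0.0886), with the replicate number as a block (0.0628), and under DESeq2 (0.172).

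The counts by role stand against the 21.5% of all tested genes that passed the adjusted p. Of 10 genes for receptor cleavage, 2 were lower. *Psen2*, a catalytic presenilin of γ-secretase, fell from 533 to 581 counts in WT to between 424 and 495 counts in *Hint1*-/- samples (log2 fold change −0.27, adjusted p = 0.00142 from edgeR's test). *Aph1a*, another subunit of that enzyme, had a log2 fold change of −0.09 (adjusted p = 0.0487), and its call was lost without WT replicate 1, 3, or 4, without *Hint1*-/- replicate 1, 2, or 4, with no filter, and under DESeq2 (adjusted p = 0.0587 to 0.132). Of 5 glycosylation genes, *Mfng*, a Fringe glycosyltransferase that tunes which ligand a receptor answers to, fell (log2 fold change −0.32, adjusted p = 0.0251). The genotypes touched at 190 counts, and the call for *Mfng* was lost without WT replicate 4 or without *Hint1*-/- replicate 1, 2, or 4 (adjusted p = 0.0569 to 0.100). Of 5 genes for ligand ubiquitination, edgeR, DESeq2, and limma-voom each called 0, and 1 had an unadjusted p under 0.05.

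Of 16 genes listed under the nuclear complex, 3 rose and 1 fell, a share near the 21.5% of all tested genes. The 16 include *Kyat1*, which encodes a kynurenine aminotransferase and not a part of that complex. *Kyat1* did not pass (adjusted p = 0.171 from edgeR's test). *Tle1* (log2 fold change 0.21, adjusted p = 0.000863 from edgeR's test) and *Tle2* (0.35, adjusted p = 0.00421) encode Groucho corepressors that HES proteins can recruit. Both were fully separated in CPM, with *Hint1*-/- on the higher side. *Tle4*, of the same family, fell (−0.23, adjusted p = 0.0192), and its call was lost without WT replicate 3 (0.0516), without *Hint1*-/- replicate 2 (0.0549) or 3 (0.0518), and under DESeq2 (0.0796). *Spen*, a corepressor of RBPJ target genes, rose by 0.16 on the log2 scale (adjusted p = 0.0302), with its call lost without WT replicate 1 (0.109), without *Hint1*-/- replicate 2 (0.0542) or 4 (0.125), with library size alone (0.0505), and with the 20 most abundant genes left out of the library size (0.0577). *Rbpj*, named after its values were seen because it binds DNA for the whole pathway, had 11859 to 12162 counts in WT and 12171 to 12914 counts in *Hint1*-/- samples. These ranges nearly met without overlap, and the log2 fold change of *Rbpj* was 0.07 (95% interval 0.00 to 0.13, adjusted p = 0.123 from edgeR's test).

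Of 9 tested genes for receptor turnover and inhibition, 2 rose, again near the 21.5% of all tested genes. *Dtx4*, a Deltex ubiquitin ligase that acts on Notch receptors, rose by 0.22 on the log2 scale (adjusted p = 0.00566 from edgeR's test). *Numbl*, a relative of the Notch inhibitor NUMB, rose by 0.12 (adjusted p = 0.0178), and its call was lost without *Hint1*-/- replicate 1 (0.0654). Of 4 tested further targets, *Ccnd1*, which encodes the cell cycle regulator cyclin D1, fell from 13345 to 14736 counts in WT to between 11137 and 11480 counts in *Hint1*-/- samples (log2 fold change −0.29, adjusted p = 3.23e-06). *Myc*, a growth-promoting transcription factor, moved the other way, by 0.16 (adjusted p = 0.00377). Both of these genes answer to many signals other than Notch.

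**Figure D4:**
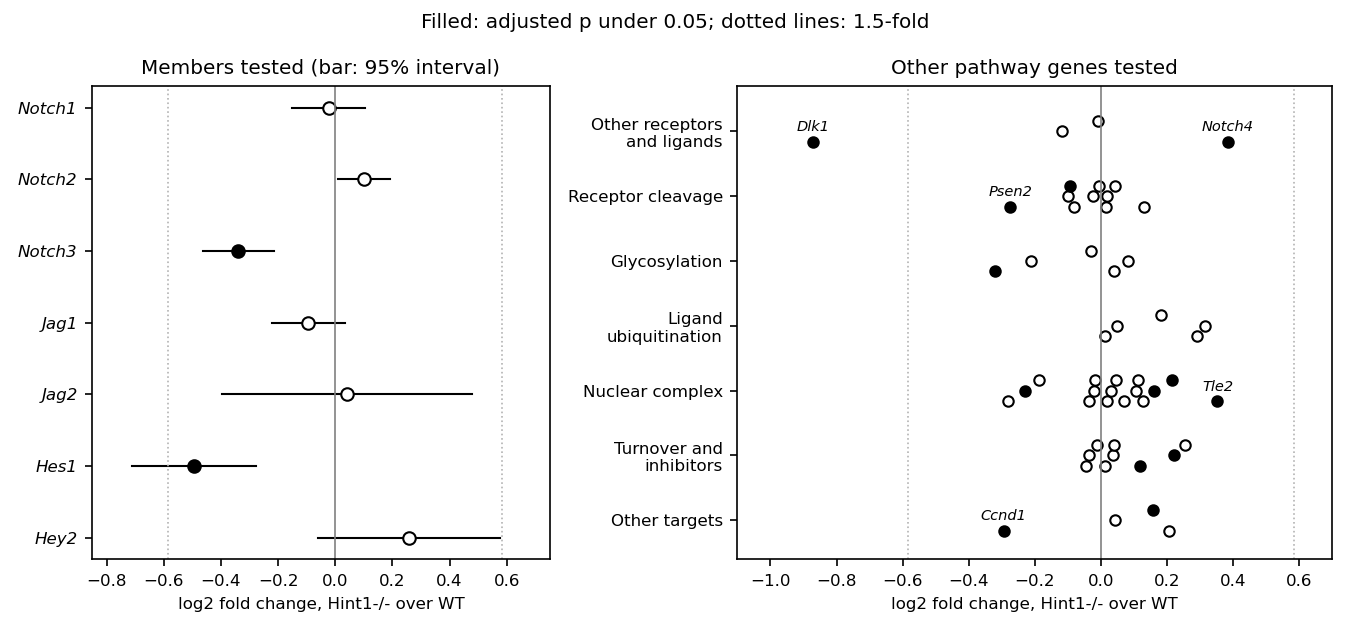
Log2 fold change of *Hint1*-/- over WT (horizontal axis) for the 7 tested members with 95% intervals (left) and for the 53 other tested pathway genes grouped by role (right); filled points passed an adjusted p of 0.05 and dotted lines mark 1.5-fold. *Notch3* (−0.34) and *Hes1* (−0.49) are filled and lie within 1.5-fold, and *Dlk1* (−0.87) alone lies beyond it.

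Markers of the cell types that such a culture could hold moved between the genotypes, and in bulk RNA fewer cells of a type and less RNA per cell cannot be told apart. Over all tested genes, 10.2% were lower and 11.2% higher at the adjusted p alone. At both thresholds, 1.49% were lower and 1.34% higher. Of 8 smooth muscle markers, 5 were lower and 1 was higher at the adjusted p, with *Myh11* (log2 fold change −1.54), *Cnn1* (−1.12), and *Des* (−0.61) past 1.5-fold. The summed level of these 8 genes was 1375 to 1491 CPM in WT and 1137 to 1228 CPM in *Hint1*-/- samples. All 6 macrophage markers were lower, by −0.44 to −0.25 on the log2 scale. Of 5 pericyte markers, 4 were tested and 2 were lower at the adjusted p, *Cspg4* (−0.75) past 1.5-fold. *Higd1b*, not tested, was at 0 in all 4 WT samples and at 0 or 1 count in *Hint1*-/- samples. The summed pericyte level was 70.8 to 82.4 CPM in WT and 56.2 to 58.2 CPM in *Hint1*-/- samples.

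Of 8 Schwann cell and neural crest markers, 7 were lower at both thresholds, where 1.49% of all tested genes were. Among the 7 were *Ngfr* (−2.73), *Sox10* (−2.53), *Foxd3* (−2.28), *Cdh19* (−1.91), and *Erbb3* (−1.13). The summed level of the 8 was 50.4 to 56.8 CPM in WT and 12.9 to 15.3 CPM in *Hint1*-/- samples. Of 6 fibroblast markers, 3 were higher and 2 lower at the adjusted p. Past 1.5-fold, *Dcn* (0.83) and *Lum* (0.88) were higher and *Dpt* (−0.79) was lower. The sum of the 6 was 1729 to 1800 CPM in WT and 2618 to 2753 CPM in *Hint1*-/- samples. Most of that sum was *Dcn* alone, with a WT mean of 1112 CPM ± 42.4 and a *Hint1*-/- mean of 1975 CPM ± 61.4 (SD, n = 4 each). Of 12 endothelial markers, 7 were tested and none was called by edgeR, DESeq2, or limma-voom. An unadjusted p under 0.05 in edgeR's test was seen for 2 of the 7 and for 32.8% of all tested genes. The summed level of the 12 endothelial markers was 8.58 to 11.3 CPM in WT and 8.94 to 10.8 CPM in *Hint1*-/- samples. No gene of this list was at 0 in every sample. Of 6 cardiac muscle markers, *Myl7* was at 0 in every WT sample and at 13 to 34 counts in *Hint1*-/- samples, *Myh6* at 0 to 3 and 32 to 58 counts, and *Tnnt2* had a log2 fold change of 0.76. *Myl7* and *Myh6* passed the filter on low counts only through the *Hint1*-/- group, so the number of cardiac genes tested is not read as a result. Of the 3 that were not tested, *Actc1* had 0 to 2 counts in WT and 4 to 20 in *Hint1*-/- samples, *Nppa* 3 to 8 and 1 to 4, and *Myl2* 0 to 3 and 0 to 4. The part of any of these cell types in the changes of *Notch3*, *Hes1*, and *Notch4* was not tested.

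**Figure D5:**
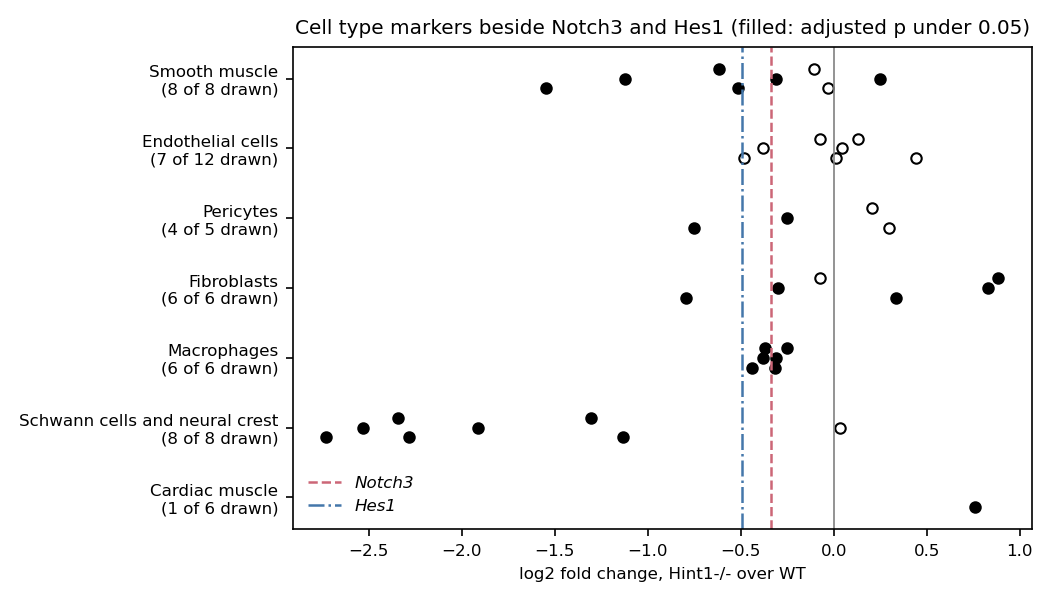
Log2 fold change of *Hint1*-/- over WT (horizontal axis) for the tested markers of 7 cell types, with filled points past an adjusted p of 0.05 and vertical lines at *Notch3* (−0.34) and *Hes1* (−0.49). The *Notch3* line lies within the spread of the smooth muscle, endothelial, pericyte, fibroblast, macrophage, and Schwann cell markers. The *Hes1* line lies below the lowest macrophage marker (−0.44) and the lowest endothelial marker (−0.48), and within the spread of the smooth muscle, pericyte, fibroblast, and Schwann cell markers. The endothelial markers are spread about 0, and *Myh6* and *Myl7* are off the scale and not drawn.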

How the data were processed

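RNA-Seq counts were analysed for MASMCs of 4 WT and 4 *Hint1*-/- samples, all treated with PDGF-BB, and grouped by genotype as the sample titles give it. The authors deposited estimated counts per gene symbol, without normalization. The submitters' processing notes name Bowtie2, RSEM 1.3.1, and mm10, and the study's methods name HISAT2 and mm10; the gene annotation is not given in the sources used here. Per sample, 67.3% to 67.8% of values had no decimals, as did all 80 values of the 10 Notch genes. Counts were rounded, filtered with filterByExpr, scaled by TMM, and tested with glmQLFit and glmQLFTest in edgeR 4.0.16 (R 4.3.3), with genotype as the only term. The SE is the log2 fold change divided by the square root of F. DESeq2 1.42.0 and limma-voom (limma 3.58.1) were alternatives. The pipeline was tested on simulated data. Positions, exon lengths, and transcripts came from GENCODE M21 (GRCm38, the same assembly as mm10) by gene symbol. Counting intervals are exact (Clopper-Pearson).

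The 10 genes and the lists of pathway and marker genes were chosen with earlier results of these data known. The text names the 10 genes, *Hint1*, every pathway gene past the adjusted p, and every marker past both thresholds except some that are not reported here. Alternatives were other scalings (DESeq2 size factors, upper-quartile, library size alone or without the 20 most abundant genes), no filter or at least 10 counts in every sample, unrounded counts, the replicate number as a block, and each sample left out in turn.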

Additional observations from a re-analysis of the deposited data

Results flagged for a closer look

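In 2 of 20 groups of 4 samples, formed by the 10 Notch genes in each genotype, 1 sample stood far from the other 3 in log2 CPM, measured as its gap to the nearest sample over the range of the group. Chance gives about 1 in 20. For *Jag2* in WT samples, the 32 counts of replicate 3 stood above the others, which had 21 to 22, and the gap was 0.877 in these units. For *Hey1* in *Hint1*-/- samples, the 2 counts of replicate 3 stood below the others, which had 3 each, and the gap was 0.991, which is a difference of 1 count.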

How the results depend on the processing

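The calls for *Notch3* and *Hes1* held in all 18 alternative fits, with log2 fold changes of −0.38 to −0.30 for *Notch3* (adjusted p = 1.23e-05 to 0.00217) and −0.54 to −0.44 for *Hes1* (adjusted p = 0.00108 to 0.00799). With each sample left out in turn, 350 to 390 genes passed both thresholds over all genes, and 0 Notch genes did. At the less strict adjusted p alone, 2 to 3 of the 7 tested Notch genes and 8 to 15 of the other pathway genes passed. Over the same fits the log2 fold change of *Notch2* ranged from 0.061 to 0.137, that of *Notch1* from −0.089 to 0.034, and that of *Jag2* from −0.024 to 0.201. *Notch1* and *Jag2* changed sign there, with neither called in any of these fits, and the cause of the change in *Notch2* was not tested. On the adjusted p alone, with all 8 samples, the count was 2907 over all genes tested (21.5%) and 2 among the 7 tested Notch genes. In the order by RPKM over the 8 samples, 2 of the 10 places changed with the longest transcript (*Notch1* and *Notch3*), and 0 to 2 changed with a sample left out (*Hey1* and *Dll4*). With the replicate number as a block, 382 genes were called and *Notch3* and *Hes1* kept their calls. The deviations of same-numbered samples had correlations of −0.05, 0.08, 0.01, and 0.02 across genes, so no sign of pairing by number was seen. Whether same-numbered samples were handled together is not given in the sources used here. No scaling moved the median log2 fold change of all genes by more than 0.02. Depth limits what can be said of *Dll4*, *Hey1*, and *Heyl*, with 0 to 7 counts per sample.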
